A study of Mus musculus with 12 samples.

Results

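The 33 genes described here encode the enzymes that make and recycle purine, pyrimidine and deoxynucleotides, and they were taken by gene symbol from a list of such enzymes. All 33 were found in each of the 3 tables, which together list 12484 genes. The cells were KPC cells, a murine pancreatic ductal adenocarcinoma (PDAC) line derived from a mouse tumour. The 4 groups, of 3 libraries each, carried a doxycycline-inducible shRNA: shCTR9, shCDC73, shMYC and, as the control, shLuciferase. All 12 libraries came from cells treated with doxycycline at 1 µg/ml for 48 h. The methods describe lentiviral delivery of the CTR9 and CDC73 shRNAs and refer to earlier work for the shMYC cells, so a difference between experiments and the depletion of MYC cannot be told apart in any comparison with shMYC. CTR9 and CDC73 are subunits of PAF1c, a complex that travels with RNA polymerase II and aids elongation, and MYC is a transcription factor. The study calls the replicates of its RNA-seq biological.

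Nucleotides are built in a few linked routes. The de novo purine route starts from phosphoribosyl pyrophosphate (PRPP) and ends at inosine monophosphate (IMP), which is then turned into AMP or GMP. The de novo pyrimidine route makes UMP and then CTP, ribonucleotide reductase turns ribonucleotides into the deoxynucleotides used for DNA replication, and salvage enzymes recover free bases and nucleosides. Several of these genes are textbook targets of MYC, and dividing tumour cells depend on these routes during S-phase.

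The values used are the pooled mean levels that the tables give for each gene, in CPM, read counts scaled to library size. Each mean covers 6 libraries, those of 1 depletion and of the shLuciferase control, and is named here by its depletion. With no value per library there is no spread between replicates, so no p-value, SD or test is given, and no value of a depletion alone or of the control alone. The tables share the control group, and each comparison below therefore sets 1 pooled mean against another; where scales are equal the shared control pulls such a ratio towards 1. The pooled means of all listed genes summed to 1.00568e+06, 1.00541e+06 and 999965 CPM in the shCTR9, shCDC73 and shMYC tables, so the totals were close. Like totals do not show that the levels of single genes are on a common scale. Over all genes the median log2 ratio was -0.12 for shCTR9 over shMYC (11723 genes), -0.15 for shCDC73 over shMYC (11788 genes) and 0.0057 for shCTR9 over shCDC73 (11806 genes). The cause of this shift was not tested. Ratios are given relative to it, called centred, and the values as deposited stand beside the counts. A member is counted as higher or lower where its ratio is at least 1.2-fold, a size fixed for description and not a test. In bulk RNA, fewer cells in a state and less RNA per cell cannot be told apart.

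The tables were checked with the depleted genes and with cell markers. The pooled mean of Ctr9 was 16.5, 41.7 and 24.99 CPM in the shCTR9, shCDC73 and shMYC tables, that of Cdc73 was 41.2, 21.9 and 37.3 CPM, and that of Myc was 155, 178 and 118 CPM. Each was lowest in the table of its own depletion. Ctr9 also differed between the shCDC73 and shMYC tables, where it was not the target. Its log2 ratio of shCDC73 over shMYC was 0.74 as deposited and 0.89 centred, and the cause was not tested. Of 7 ductal epithelial markers, 6 were listed in a table (Krt7, Krt8, Krt18, Krt19, Cdh1 and Sox9) and Epcam was not among the listed genes. Krt7 was not among the listed genes of the shCDC73 table. The summed pooled level of the 5 markers listed in all tables was 9134, 6654 and 8457 CPM in the shCTR9, shCDC73 and shMYC tables. The markers did not move together. Krt8, Krt18, Krt19 and Cdh1 were lowest in the shCDC73 table, whereas Sox9 was highest there, at 12.7, 18.5 and 3.56 CPM. The part of the marker levels in the results was not tested. None of the 4 acinar, 4 fibroblast, 4 leukocyte and 3 endothelial markers was listed, and the tables leave out genes under the read minimum of the authors.

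The promoter windows of 4 genes are shown because they belong to genes with a high ratio or a shared start region. Impdh2 had the highest centred ratio of the list in both comparisons with shMYC. Atic stood past 1.2-fold in both once centred, but not as deposited for shCTR9 over shMYC. Paics shares its start region with Ppat, and Umps stood past 1.2-fold in both without the motif. Each window covers 250 bases before and 50 bases after a RefSeq transcription start (GRCm38.p6), written 5′ to 3′ on the strand of the gene, and capitals mark CACGTG, the E-box form bound by MYC with its partner MAX. The windows are chr9:108560186-108560485 on the plus strand for Impdh2, chr1:71556906-71557205 on the plus strand for Atic, chr5:76951052-76951351 on the plus strand for Paics and chr16:33966989-33967288 on the minus strand for Umps.
Impdh2: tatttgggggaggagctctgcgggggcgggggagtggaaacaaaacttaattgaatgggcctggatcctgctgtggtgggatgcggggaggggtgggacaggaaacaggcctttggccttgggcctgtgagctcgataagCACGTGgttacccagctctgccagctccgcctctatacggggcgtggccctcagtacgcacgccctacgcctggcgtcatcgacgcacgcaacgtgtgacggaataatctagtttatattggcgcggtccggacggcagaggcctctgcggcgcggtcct
Atic: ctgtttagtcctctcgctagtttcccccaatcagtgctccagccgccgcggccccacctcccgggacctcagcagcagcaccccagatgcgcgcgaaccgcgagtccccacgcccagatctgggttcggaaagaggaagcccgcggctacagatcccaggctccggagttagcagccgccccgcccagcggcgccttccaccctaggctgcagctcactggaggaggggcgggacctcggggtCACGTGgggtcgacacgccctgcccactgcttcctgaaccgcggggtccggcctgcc
Paics: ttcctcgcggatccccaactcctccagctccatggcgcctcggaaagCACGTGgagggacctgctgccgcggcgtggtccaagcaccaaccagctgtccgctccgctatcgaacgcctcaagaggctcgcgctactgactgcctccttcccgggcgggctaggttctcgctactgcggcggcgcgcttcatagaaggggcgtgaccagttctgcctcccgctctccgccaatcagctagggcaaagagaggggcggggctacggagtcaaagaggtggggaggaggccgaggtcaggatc
Umps: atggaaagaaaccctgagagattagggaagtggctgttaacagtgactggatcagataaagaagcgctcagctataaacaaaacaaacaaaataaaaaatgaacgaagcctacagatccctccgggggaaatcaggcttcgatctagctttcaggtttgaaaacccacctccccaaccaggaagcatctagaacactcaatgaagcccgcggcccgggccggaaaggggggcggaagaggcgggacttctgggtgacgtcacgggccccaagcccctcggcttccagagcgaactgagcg

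CACGTG reads the same on both strands, so a match counts for both. It was in the window of 6 of the 31 members with a RefSeq promoter (19.4%, Wilson 95% interval 9.19 to 36.3), and in 1121 of 9441 genes of the tables (11.9%, interval 11.2 to 12.5). The interval of the members covers the share of all genes. The first base of the match lay at -110 from the start in Impdh2, -7 in Atic, -148 in Dtymk, -61 in Tyms and -203 in Paics, and Nme1 also had a match. Umps had none in its window, which says only that these letters are not in it. Dut, Prps1, Samhd1, Cad and Rrm2, past 1.2-fold in both comparisons with shMYC once centred, had none either. Their windows are not shown, nor are those of Dtymk and Nme1, which were past 1.2-fold in both once centred and had a match. The windows shown are therefore no measure of how often the motif goes with a high ratio. The Dut window, chr2:125247265-125247564, lies inside the gene, whose span starts at base 125247248. The bases before that outer start were not searched. Pfas and Dhodh had no matching window. The centred log2 ratio of shCTR9 over shMYC had a median of 0.30 in the 6 members with the motif and 0.12 in the 25 without it. For shCDC73 over shMYC these medians were 0.47 and 0.04, and for shCTR9 over shCDC73 they were -0.18 and 0.06. Over all genes the medians with and without the motif were 0.02 and -0.02 for shCTR9 over shMYC, and also 0.02 and -0.02 for shCDC73 over shMYC. The medians of the members rest on few genes and are descriptions.

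Relative to the median of all genes, 25 of the 33 nucleotide synthesis genes had a higher pooled mean in the shCTR9 table than in the shMYC table, and 23 had a higher pooled mean in the shCDC73 table than in the shMYC table. As deposited these were 19 and 16 of 33, where 37.7% and 37.1% of all genes had a ratio above 0. For shCTR9 over shMYC, 8 of 33 members were at least 1.2-fold higher as deposited (24.2%), against 15.3% of all genes, and 3 were lower (9.09%), against 36.2%. Centred on the median of all genes, 13 were higher (39.4%), against 24.6%, and 1 was lower (3.03%), against 26.5%. For shCDC73 over shMYC, 10 were higher as deposited (30.3%), against 19.1%, and 4 were lower (12.1%), against 40.4%. Centred, 14 were higher (42.4%), against 28.9%, and 1 was lower (3.03%), against 28.5%. For shCTR9 over shCDC73, 5 were higher as deposited (15.2%), against 18.6%, and 3 were lower (9.09%), against 16.9%. Centred, 5 were higher (15.2%), against 18.2%, and 4 were lower (12.1%), against 17.2%. The counts for shCTR9 over shCDC73 rest on few genes and are not read as a difference from all genes. The median log2 ratio of the members, centred, was 0.19 for shCTR9 over shMYC, 0.11 for shCDC73 over shMYC and -0.0093 for shCTR9 over shCDC73. As deposited these medians were 0.07, -0.05 and -0.0036, and over the 29 members that share at most 10% of their 50-base stretches with other genes they were 0.020, -0.13 and 0.040 as deposited, a choice made after seeing the data. The 8 members higher for shCTR9 over shMYC on both scales were Impdh2, Dut, Prps1, Dctpp1, Umps, Rrm2, Samhd1 and Gart, and centring added Nme1, Cad, Atic, Dhodh and Dtymk. The 10 higher for shCDC73 over shMYC on both scales were Impdh2, Dut, Umps, Cad, Dtymk, Prps1, Samhd1, Atic, Nme1 and Gmps, and centring added Rrm2, Tyms, Nme2 and Ppat. Centring turned the sign of Prps2, Ppat, Adss, Nme2, Tk1 and Dck for shCTR9 over shMYC, and of Prps2, Gart, Impdh1, Rrm1, Aprt, Uck2 and Dck for shCDC73 over shMYC, all of them under 1.2-fold as deposited. The members lower as deposited were Ctps2, Guk1 and Ctps for shCTR9 over shMYC, of which centring left Ctps2. For shCDC73 over shMYC they were Cmpk1, Ctps2, Guk1 and Hprt, of which centring left Cmpk1. The comparisons share control libraries, and the first and second share the shMYC table. The members are mostly abundant genes. Ctps2, Dhodh and Prps2 stood above 22.3%, 43.7% and 50.9% of the genes of the shMYC table in level, and the other members above 64.7% or more. All genes thus include many of lower level, and shares of genes of like level were not worked out. The part of level in these counts was not tested.

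**Figure D1:**
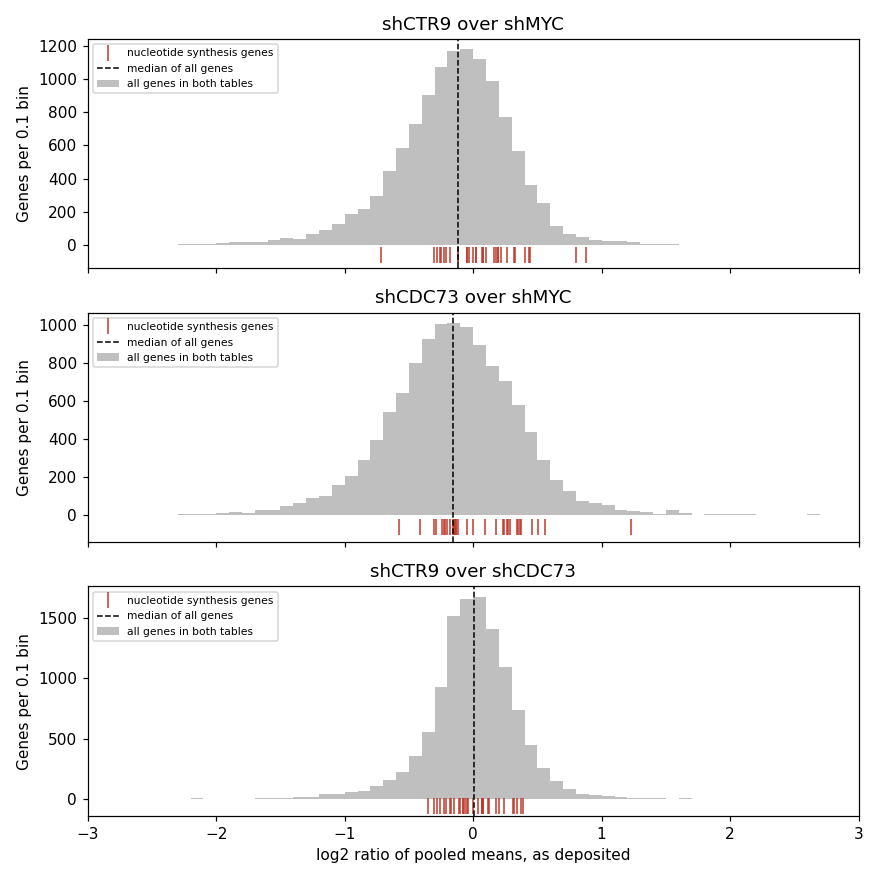
Histograms of the log2 ratio of pooled means, as deposited, over all genes listed in both tables (grey bars, genes per bin of 0.1) with the 33 nucleotide synthesis genes as red ticks and the median of all genes as a dashed line. The axis ends at -3 and 3 and leaves out 22, 20 and 2 genes. The members reach 0.87 and -0.72 for shCTR9 over shMYC, and 1.23 and -0.58 for shCDC73 over shMYC.

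The members differed far more among themselves in level than between tables. Levels per kb use the union of annotated exons, which can be longer than the transcript that is made. They set genes side by side only roughly. Nme2 had the highest pooled level at 675, 819 and 699 CPM per kb in the shCTR9, shCDC73 and shMYC tables. Ctps2 had the lowest at 1.12, 1.38 and 1.84. The summed pooled level of all 33 was 6176, 6296 and 5731 CPM. Aprt, which salvages adenine, and Dctpp1, which removes dCTP, followed Nme2 per kb, Aprt at 362, 315 and 345 and Dctpp1 at 261, 206 and 193 CPM per kb.

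**Figure D2:**
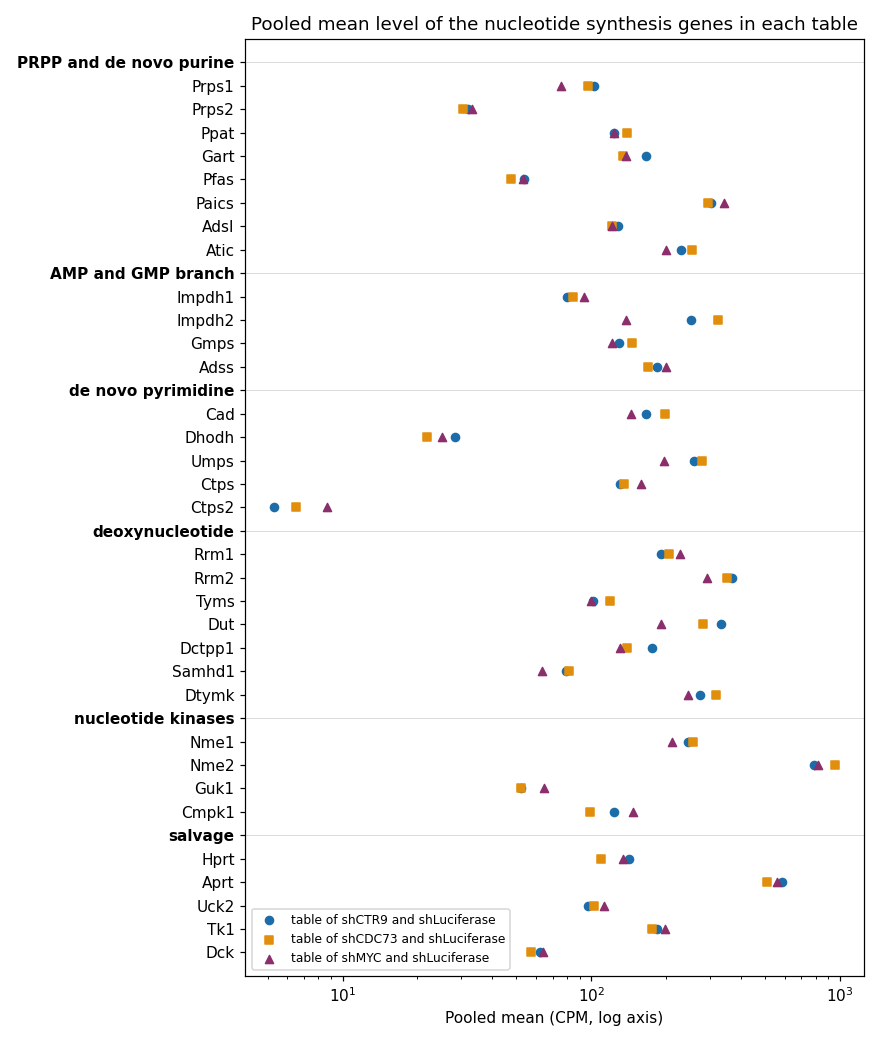
Pooled mean of each of the 33 genes in CPM on a log axis, in order of role, in the tables of shCTR9 (circles), shCDC73 (squares) and shMYC (triangles), each pooled with shLuciferase. Impdh2 is at 253, 323 and 138 CPM; Ctps2, the lowest of the list, is at 5.28, 6.52 and 8.70 CPM.

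The purine route up to IMP, with the enzymes that make PRPP, was covered by 8 genes, of which 3 were at least 1.2-fold higher for shCTR9 over shMYC and 3 for shCDC73 over shMYC once centred, where 24.6% and 28.9% of all genes were. Prps1, which makes PRPP, had 102 CPM in the shCTR9 table, 96.9 CPM in the shCDC73 table and 75.3 CPM in the shMYC table, a centred log2 ratio of 0.57 for shCTR9 over shMYC and 0.52 for shCDC73 over shMYC. Its relative Prps2 had 32.0, 30.6 and 33.1 CPM and centred ratios of 0.07 and 0.04. Prps1 shares 9.93% of its 50-base stretches with Prps1l3. Gart, which carries out 3 steps of the route, had 167, 134 and 139 CPM, with centred ratios of 0.39 and 0.11. An antisense gene, Gm15964, overlaps Gart and shares 15.5% of its stretches, and the strand setting of the counting is not given in the sources used here. Atic, which ends the route at IMP, had 229, 253 and 200 CPM and centred ratios of 0.32 and 0.49. Ppat, the committed step, had 123, 140 and 124 CPM, with centred ratios of 0.12 and 0.33. Paics had 303, 295 and 343 CPM and centred ratios of -0.06 and -0.07, and it starts 271 bases from Ppat on the other strand of chromosome 5. Their transcripts overlap on opposite strands, and the library kit keeps the strand, but without the strand setting of the counting it is not known to which gene reads of the shared stretch were assigned. Pfas, a middle step, had 53.8, 47.6 and 53.1 CPM and centred ratios of 0.14 and -0.01. Adsl, which acts both before IMP and on the way to AMP, had 128, 121 and 121 CPM and centred ratios of 0.20 and 0.15.

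The branch from IMP to GMP held the gene with the highest centred ratio of the list. Impdh2, which oxidises IMP and sets the rate of GMP synthesis, had 253 CPM in the shCTR9 table, 323 CPM in the shCDC73 table and 138 CPM in the shMYC table. The gene spans 5.14 kb (chr9:108560436-108565577, GRCm38). Its log2 ratio as deposited was 0.87 for shCTR9 over shMYC and 1.23 for shCDC73 over shMYC. Its centred ratio was 1.00 for shCTR9 over shMYC, above 98.7% of all genes, and 1.38 for shCDC73 over shMYC, above 98.9%. For shCTR9 over shCDC73 it was -0.36. Impdh2 shares 39.3% of its 50-base stretches with the pseudogene Impdh2-ps, so part of its reads may be split or shared. Impdh1, its relative with the same reaction, had 80.1, 84.4 and 93.6 CPM and centred ratios of -0.10 and 0.00. Gmps, which completes GMP, had 129, 146 and 121 CPM with centred ratios of 0.22 and 0.43. Adss, on the way to AMP, had 184, 169 and 200 CPM and a centred ratio of -0.09 for shCDC73 over shMYC.

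The pyrimidine route was uneven. Cad, which holds the first 3 activities, had 165, 198 and 144 CPM in the shCTR9, shCDC73 and shMYC tables, with centred ratios of 0.32 for shCTR9 over shMYC and 0.61 for shCDC73 over shMYC. Umps, which completes UMP, had 259, 278 and 196 CPM and centred ratios of 0.52 and 0.66. Dhodh, the mitochondrial step between them, had 28.4, 21.8 and 25.1 CPM, with centred ratios of 0.30 and -0.05 and, for shCTR9 over shCDC73, 0.38. The CTP synthases had centred ratios below 0, those of Ctps under 1.2-fold. Ctps had 131, 136 and 159 CPM with centred ratios of -0.16 and -0.08, and Ctps2 had 5.28, 6.52 and 8.70 CPM with centred ratios of -0.60 and -0.26. Ctps2 had the lowest level of the list and the longest span, 133 kb. It was the only member at least 1.2-fold lower for shCTR9 over shMYC once centred. The part of its span and low level was not tested.

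Genes that make or break down deoxynucleotides had the highest median of the 6 roles, 0.44 for shCTR9 over shMYC and 0.42 for shCDC73 over shMYC (7 genes, centred), and 0.31 and 0.26 as deposited. The median for shCTR9 over shMYC is the value of Samhd1, and that for shCDC73 over shMYC the value of Rrm2. Dut, which destroys dUTP and makes dUMP for thymidylate synthesis, had 333, 282 and 191 CPM in the shCTR9, shCDC73 and shMYC tables and centred ratios of 0.92 and 0.71. Dctpp1 had 176, 139 and 130 CPM, with centred ratios of 0.56 and 0.25. Rrm2, the small subunit of ribonucleotide reductase that is made in S-phase, had 368, 352 and 293 CPM with centred ratios of 0.45 and 0.42, whereas Rrm1, the large subunit, had 191, 206 and 227 CPM with -0.13 and 0.02. Samhd1, which breaks down dNTPs, had 79.1, 81.2 and 63.6 CPM and centred ratios of 0.44 and 0.51. Tyms, which makes dTMP, had 102, 119 and 100 CPM and centred ratios of 0.14 and 0.40, and Dtymk, which phosphorylates dTMP, had 273, 316 and 244 CPM and 0.28 and 0.53.

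**Figure D3:**
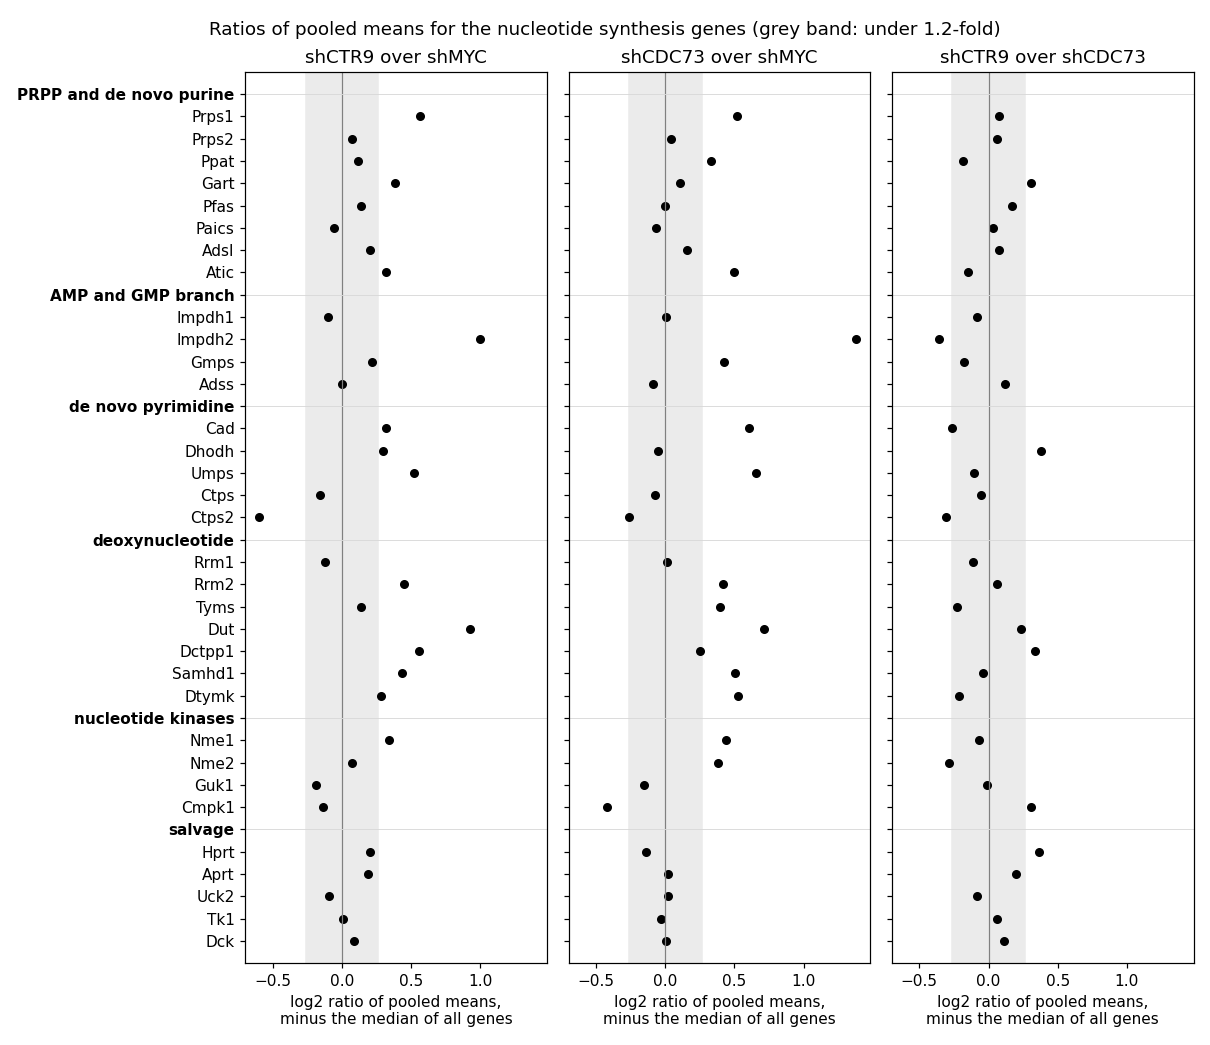
Centred log2 ratio of pooled means of each of the 33 genes, in order of role, for shCTR9 over shMYC, shCDC73 over shMYC and shCTR9 over shCDC73. The grey band marks ratios under 1.2-fold. Impdh2 is at 1.00, 1.38 and -0.36 and Dut at 0.92, 0.71 and 0.24.

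Of the 4 nucleotide kinases, once centred, 1 was at least 1.2-fold higher and none lower for shCTR9 over shMYC. Of all genes, 24.6% were higher and 26.5% lower. For shCDC73 over shMYC, 2 were higher and 1 lower, against 28.9% and 28.5% of all genes. These counts rest on few genes. Nme1, a nucleoside diphosphate kinase, had 245, 257 and 211 CPM in the shCTR9, shCDC73 and shMYC tables with centred ratios of 0.34 and 0.44, and Nme2 had 790, 959 and 818 CPM with 0.07 and 0.38. Nme2 shares 47.0% and Nme1 11.1% of their stretches with the readthrough gene Gm20390, so the split of reads between them is uncertain. Guk1, the guanylate kinase, had 52.0, 52.1 and 64.4 CPM and centred ratios of -0.19 and -0.15. Cmpk1, which phosphorylates UMP and CMP, had 123, 99.0 and 147 CPM and centred ratios of -0.14 and -0.42, the lowest of the list for shCDC73 over shMYC. Among salvage enzymes, Hprt, which recovers hypoxanthine and guanine, had 142, 110 and 134 CPM and a centred ratio of 0.36 for shCTR9 over shCDC73. Aprt had 585, 508 and 557 CPM. Uck2, which phosphorylates uridine and cytidine, had 96.7, 102 and 112 CPM, Tk1, the thymidine kinase, had 183, 175 and 199 CPM, and Dck, the deoxycytidine kinase, had 62.3, 57.5 and 63.8 CPM. None of the 5 salvage genes reached 1.2-fold for shCTR9 or shCDC73 over shMYC once centred. The shares of all genes are those given above for the kinases. The centred ratios of the salvage genes lay between -0.14 and 0.20.

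Ratios of 2 genes within a table do not depend on its scale. Per kb, Impdh2 stood at 3.38 and 4.098 times Impdh1 in the shCTR9 and shCDC73 tables, against 1.58 times in the shMYC table. Prps1 to Prps2 was 6.22 and 6.16 in the PAF1c tables and 4.42 in the shMYC table. Rrm2 to Rrm1 was 7.65 and 6.78, against 5.14, and Ctps to Ctps2 was 35.3 and 29.6, against 26.1. In CPM without length, Rrm2 to Rrm1 was 1.93 and 1.71, against 1.29. The union of exons is 11.0 kb for Rrm1 and 2.77 kb for Rrm2, so the size of their ratio per kb rests largely on these lengths. Nme2 to Nme1 was 9.20 and 10.7, against 11.1. With no replicate error, these differences between tables cannot be set against the spread of libraries, and a ratio does not tell which gene of a pair differs.

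**Figure D4:**
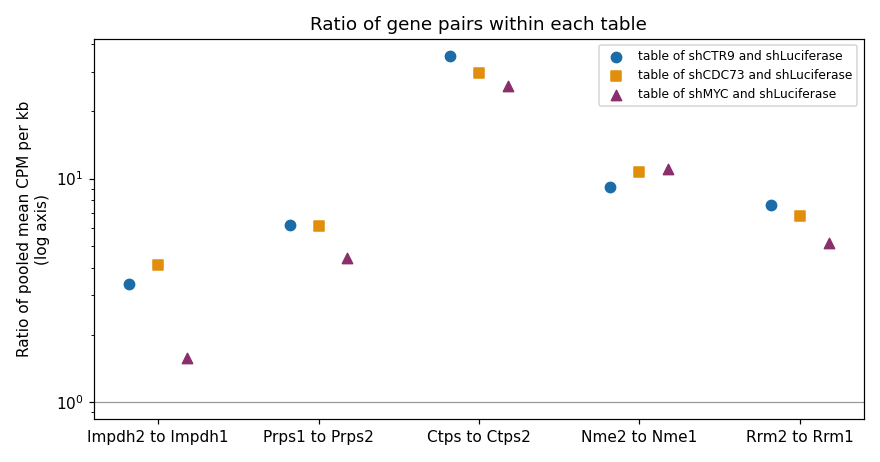
Ratio of the pooled mean CPM per kb of 5 gene pairs within the tables of shCTR9 (circles), shCDC73 (squares) and shMYC (triangles), on a log axis. Impdh2 to Impdh1 is at 3.38 and 4.098 in the PAF1c tables and 1.58 in the shMYC table. Lengths are the union of annotated exons.

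Gene span moved with the ratio in both comparisons with shMYC, over all genes as well as over the members, and its part was not tested. For shCTR9 over shMYC, the centred median was 0.29 in the 16 members under 20 kb, 0.14 in the 14 of 20 to 50 kb and -0.09 in the 3 over 50 kb, and over all genes it was 0.09, -0.01 and -0.14. For shCDC73 over shMYC, it was 0.32, 0.07 and 0.02 in the members and 0.10, -0.04 and -0.12 over all genes. The members stood above all genes of the same span class in each of these 6 medians. Over 50 kb the medians rest on 3 members, whose centred ratios for shCTR9 over shMYC ran from -0.60 to 0.22. For shCTR9 over shCDC73 the medians were 0.05, 0.01 and -0.18 in the members and -0.01, 0.04 and -0.01 over all genes, so the members stood above all genes in the shortest class only.

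Other nucleotide genes were given by a wider list of 48, of which 39 were in both tables for shCTR9 over shMYC. Of these, 10 were at least 1.2-fold higher once centred (25.6%), against 24.6% of all genes, and 14 lower (35.9%), against 26.5%. As deposited, 9 were higher (23.1%), against 15.3%, and 17 lower (43.6%), against 36.2%. For shCDC73 over shMYC, with 41 in both tables, 14 were higher once centred (34.1%), against 28.9%, and 16 lower (39.0%), against 28.5%. As deposited, 9 were higher (22.0%), against 19.1%, and 21 lower (51.2%), against 40.4%. For shCTR9 over shCDC73, 8 of 41 were higher once centred (19.5%), against 18.2%, and 6 lower (14.6%), against 17.2%. The 5 with the largest ratio for shCTR9 over shMYC as deposited were Upp1, Dguok, Cda, Rrm2b and Prpsap1, at log2 ratios of -1.94, -0.94, -0.90, -0.88 and 0.81. Centred, the 5 largest were Upp1, Prpsap1, Shmt2, Nme3 and Dguok, at -1.82, 0.93, 0.83, 0.82 and -0.82. Upp1, uridine phosphorylase, had 7.98 and 9.35 CPM in the shCTR9 and shCDC73 tables, against 30.7 CPM in the shMYC table. Dguok, the mitochondrial deoxyguanosine kinase, had 12.3 and 12.5 CPM, against 23.5 CPM. Cda, cytidine deaminase, had 15.8 and 19.0 CPM, against 29.5 CPM, and Rrm2b, the p53-induced small subunit, had 4.82 and 5.47 CPM, against 8.85 CPM. Prpsap1, a partner of PRPP synthetase, went the other way with 176 and 200 CPM, against 100 CPM. Shmt2, the mitochondrial serine hydroxymethyltransferase, had 279 and 253 CPM, against 171 CPM, and Nme3, a nucleoside diphosphate kinase, had 29.9 and 19.2 CPM, against 18.4 CPM.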

How the data were processed

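RNA-seq of polyadenylated RNA was made from 12 libraries. By the methods and labels, alignment by the authors was to mm10 (Bowtie 2 2.3.4.1); libraries were brought to the size of the smallest, featureCounts gave gene counts, genes with fewer than 5 reads were dropped, and the authors compared each depletion with shLuciferase in edgeR; the gene annotation and strand setting are not given in the sources used here. The deposited log2 CPM column is the authors' mean over 6 libraries; the study lists a depth per library, but the column holds no value per library, so depth gives no interval here. The other 4 columns of each table (log2 fold change, likelihood ratio, p-value, adjusted p-value) hold the authors' own comparison and were not used.

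Pooled means are 2 to the power of log2 CPM, and lengths are the union of GENCODE M21 exons (python 3.11.15, pandas 2.3.3, numpy 2.4.6). Ratios between tables were taken as deposited and centred on the median of all genes, with a 1.2-fold limit. All 33 members are named by role, with fuller description for members past 1.2-fold in a comparison and for pairs of genes with the same reaction, as well as the 5 related genes with the largest ratio as deposited and Ctr9, Cdc73 and Myc; Shmt2 and Nme3, among the largest once centred, were added after their values were seen. Shared stretches are 50-base runs in transcripts of other genes. Ratio code was tested on simulated data. Members and lists were chosen with earlier results of these data known. Intervals cover counting error only.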

Additional observations from a re-analysis of the deposited data

How the results depend on the processing

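No paired analysis was possible because the tables hold no value per library, and for the same reason no library could be left out. For shCTR9 over shMYC, the count of members higher was 13 at a 1.1-fold limit, 2 at 1.5-fold and 13 once centred. The count lower was 8, 1 and 1. Shares of all genes were worked out at 1.2-fold only. In each comparison, counts at other limits therefore show only how the number depends on the limit. The median of the members was 0.19 once centred. As deposited it was 0.07, against -0.12 over all genes. Over members with at most 10% of stretches shared with other genes it was 0.020 as deposited, a choice made after seeing the data. For shCDC73 over shMYC, the count higher was 1 at 1.5-fold, and the count lower was 13 at 1.1-fold, 0 at 1.5-fold and 1 once centred. Its median was 0.11 once centred and -0.05 as deposited, against -0.15 over all genes as deposited. Also as deposited, it was -0.022 over members of at least 10 CPM, 0.062 as a mean and -0.13 over members with little sharing. For shCTR9 over shCDC73, the count higher was 8 at 1.1-fold and 0 at 1.5-fold, and the count lower was 9, 0 and, with little sharing, 1. Its median was -0.0093 once centred and -0.0036 as deposited. Also as deposited, it was 0.018 over at least 10 CPM, 0.0098 as a mean and 0.040 with little sharing. The cause of these shifts was not tested. In a 200-base window, 5 of 31 members (16.1%) and 9.25% of all genes had CACGTG. No member past 1.2-fold changed direction on centring; 6 and 7 smaller ratios did in the comparisons with shMYC.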
